A study of Mus musculus with 44 samples.

Results

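The 10 genes studied here encode the contractile apparatus of smooth muscle, and they were followed in mammary fibroblasts sorted from control glands and from 2 models of triple-negative breast cancer. The members were Acta2, Actg2, Myh11, Myl9, Mylk, Cnn1, Cald1, Tagln, Smtn and Des, taken by their symbols from a table of read counts for 55486 genes. Each of the 10 members was found on 1 row of that table, and each passed the filter on low counts. In CD26- fibroblasts 8 of the 10 members were higher in WB1P tumors than in control glands, where 35.4% of all genes tested were called, and 8 were higher in WB1P-Myc tumors, where 36.6% were called. Of these, 7 were higher in both models. Within WB1P tumors all 10 members were lower in CD26+ than in CD26- fibroblasts, where 26.0% of genes were called and 13.0% were lower. Within WB1P-Myc tumors 9 of 10 were lower, where 20.0% of genes were called and 10.7% were lower.

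Smooth muscle contracts when calcium leads to activation of myosin light chain kinase, which phosphorylates the regulatory light chain and lets the myosin heavy chain pull on actin filaments. Caldesmon and calponin bind the actin filament and modulate that pull, while desmin filaments tie the apparatus together inside the cell. Many of these genes carry CArG boxes, the short DNA element bound by serum response factor, whose coactivators are myocardin and the myocardin-related factors. In stroma some of them, Acta2 above all, are also used to recognise myofibroblasts, and pericytes and vascular smooth muscle cells express many of them.

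All recipients were female En1-Cre;mTmG mice. They came from En1-Cre mice crossed for a few generations to mTmG mice of the FVB/n strain, so that their background need not be pure FVB/n. In these recipients cells that have expressed the homeobox gene Engrailed 1 and their descendants are marked by membrane GFP and other cells by membrane tdTomato. The recipients received fragments of donor mammary tissue without clearing of their own fat pads. Control recipients, whose samples are labelled wildtype, were given non-neoplastic tissue. The study names WapCre-negative Cdh1F/F;PtenF/F mice as the source of control tissue for such recipients. WB1P donors had the genotype WapCre;Brca1F/F;Trp53F/F, and WB1P-Myc donors carried the conditional allele Col1a1invCAG-Myc-IRES-Luc in addition. The WapCre transgene is active in mammary epithelium, so that the deletions concern the donor epithelium and not the fibroblasts of the recipient. In its other transplants the study found donor-derived tumor cells that lacked epithelial markers. Whether any such cells were among the sorted fibroblasts was not tested. The En1-Cre and mTmG alleles were common to all groups, and the age at harvest is not given in the sources used here.

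Fibroblasts were defined in the sort by what they lacked, namely EpCAM, CD49f, CD31 and CD45, so that pericytes and smooth muscle cells would pass the same gate. Each gland or tumor was divided into 4 populations, called En1+ and double- (both CD26-) and CD26+ and double+ (both CD26+). There were 3 control mice, 5 WB1P mice and 5 WB1P-Myc mice, with 44 libraries in all. Each control label holds a pair of numbers and was counted as 1 mouse, although it may stand for pooled animals. WB1P-Myc mice 23 and 69 were marked 8x8, the size in mm that the study uses for advanced rather than end-stage tumors. CD26- fibroblasts were available from all 13 mice, whereas CD26+ fibroblasts were available from 3 control, 4 WB1P and 5 WB1P-Myc mice. Fibroblasts of control glands are called NFs and those of tumors cancer-associated fibroblasts (CAFs).

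The libraries held between 5790599 and 15240328 counts. Libraries of the same mouse and class (1 or 2) were added up to 25 samples of 5790599 to 29498005 counts, and levels are given as CPM, that is counts relative to the library size after TMM scaling. Dpp4, which encodes CD26, checked the sort, with group means of 4.87 to 7.78 CPM in CD26- and 410 to 527 CPM in CD26+ fibroblasts. The defining fibroblast marker Pdgfra ranged from 154 to 1467 CPM in CD26- and from 372 to 1202 CPM in CD26+ samples, and none of 8 fibroblast markers was at 0 in any group. A list of 12 pericyte markers was present too, at a summed 2082 to 10010 CPM in CD26- CAFs against 261 to 519 CPM in CD26- NFs. Skeletal muscle transcripts stood out in the CD26- sample of control mouse 49/52, where 14 marker genes summed to 472 CPM, against 95.96 and 82.9 CPM in the other 2 mice. Endothelial, immune, luminal, Schwann and satellite lists summed to at most 250.0 CPM in any sample. Myoepithelial cells also make smooth muscle proteins, and a list of 8 of their markers summed to 6.90 to 18.8 CPM in CD26- NFs and to 28.4 to 129 CPM in WB1P and 12.4 to 190 CPM in WB1P-Myc CD26- CAFs, with 3.32 to 42.7 CPM in CD26+ CAFs.

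In GRCm38 coordinates Acta2 (ENSMUSG00000035783) occupies chr19:34241090-34255590 on the minus strand and Actg2 (ENSMUSG00000059430) chr6:83512905-83536265 on the minus strand. Myh11 (ENSMUSG00000018830) lies at chr16:14194535-14291372 on the minus strand, Mylk (ENSMUSG00000022836) at chr16:34745210-35002420 on the plus strand and Myl9 (ENSMUSG00000067818) at chr2:156775420-156781658 on the plus strand. Cnn1 (ENSMUSG00000001349) lies at chr9:22099216-22109630 on the plus strand, Cald1 (ENSMUSG00000029761) at chr6:34598500-34775473 on the plus strand and Tagln (ENSMUSG00000032085) at chr9:45929619-45936058 on the minus strand. Smtn (ENSMUSG00000020439) lies at chr11:3517523-3540612 on the minus strand and Des (ENSMUSG00000026208) at chr1:75360329-75368579 on the plus strand. The measured values are counts of reads per gene over exons, of which Actg2 has 11 and Myh11 43.

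At most 0.24% of the 54-base windows of a member's transcripts, for Myh11, also occurred unchanged in an annotated transcript of another gene. Copies with changed letters and copies outside the annotation were not searched. Tagln is a special case, because 62.4% of its exon bases overlap the opposite-strand gene Gm48529. That gene had 1861 counts over all libraries against 173561 for Tagln, and whether the counting used strand is not given in the sources used here. For Smtn the overlap with the opposite-strand Gm11946 was 16.3% of exon bases, and that gene had 66 counts in all.

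The promoters of Acta2 and Myl9 are shown because they were the members whose windows held CArG-like letters and because both genes were lower in CD26+ than in CD26- CAFs of each model. The windows are the 250 bases before the transcript start in RefSeq (GRCm38.p6), written 5′ to 3′ on the strand of the gene, at chr19:34255374-34255623 on the minus strand for Acta2 and at chr2:156775214-156775463 on the plus strand for Myl9. For both genes the RefSeq start lies inside the gene interval given above, so that part of each window overlaps that interval. Distances are counted from the RefSeq start. Capitals mark a CArG box, or one in which a single letter of the AT core is changed.
Acta2: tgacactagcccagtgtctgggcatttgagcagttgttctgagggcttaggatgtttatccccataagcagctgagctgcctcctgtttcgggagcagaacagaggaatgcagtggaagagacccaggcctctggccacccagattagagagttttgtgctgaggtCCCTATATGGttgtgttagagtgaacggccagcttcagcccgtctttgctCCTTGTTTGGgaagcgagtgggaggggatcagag
Myl9: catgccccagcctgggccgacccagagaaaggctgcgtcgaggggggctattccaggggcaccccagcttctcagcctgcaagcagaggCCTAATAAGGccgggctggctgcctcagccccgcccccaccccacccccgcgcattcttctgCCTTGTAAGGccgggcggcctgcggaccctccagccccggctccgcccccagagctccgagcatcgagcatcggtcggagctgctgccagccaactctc
Acta2 held CCCTATATGG at 84 to 75 bases and CCTTGTTTGG at 34 to 25 bases before the start, each with 1 changed core letter. Myl9 held the unchanged CCTAATAAGG at 161 to 152 bases and CCTTGTAAGG, with 1 changed letter, at 99 to 90 bases. A CArG box reads the same way on both strands, so that 1 search covers both. Of 32851 promoter windows of this length 1.47% held an unchanged box, 7.25% held one with a changed core letter, and 0.67% held 2 or more of either kind. RefSeq windows were matched for 7 of the 10 members, and those of Cnn1, Cald1, Des, Mylk and Smtn held neither form. Myh11, Tagln and Actg2 were not matched. These are matches of letters and not measured sites.

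Levels of different genes were compared as CPM per kb of exon. In CD26- CAFs of WB1P tumors Acta2, the actin of the vascular wall, led with 529.8 ± 113 CPM per kb (SD, n = 5), followed by Tagln with 369 ± 46.1 and Myl9 with 168 ± 41.0. Next came Cald1 with 90.8 ± 6.56 and Actg2 with 83.95 ± 36.0 CPM per kb, whose ranges overlapped. The lowest level was that of Cnn1 with 7.13 ± 4.78, which overlapped the 8.50 ± 3.76 CPM per kb of Myh11. The same 5 genes led in CD26- CAFs of WB1P-Myc tumors, where Acta2 was at 439 ± 149, Tagln at 261 ± 122 and Actg2 at 51.3 ± 25.5 CPM per kb.

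The order was different in NFs. In CD26- NFs Cald1 was first with 45.2 ± 18.5 CPM per kb (SD, n = 3), with Myl9, Acta2, Tagln and Smtn between 42.6 and 30.1 and ranges that overlapped. Actg2, the enteric smooth muscle actin, was last with 0.564 ± 0.284 CPM per kb. In CD26+ NFs Myl9 came first with 47.7 ± 3.11 and Actg2 was last again with 0.129 ± 0.110 CPM per kb.

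**Figure D1:**
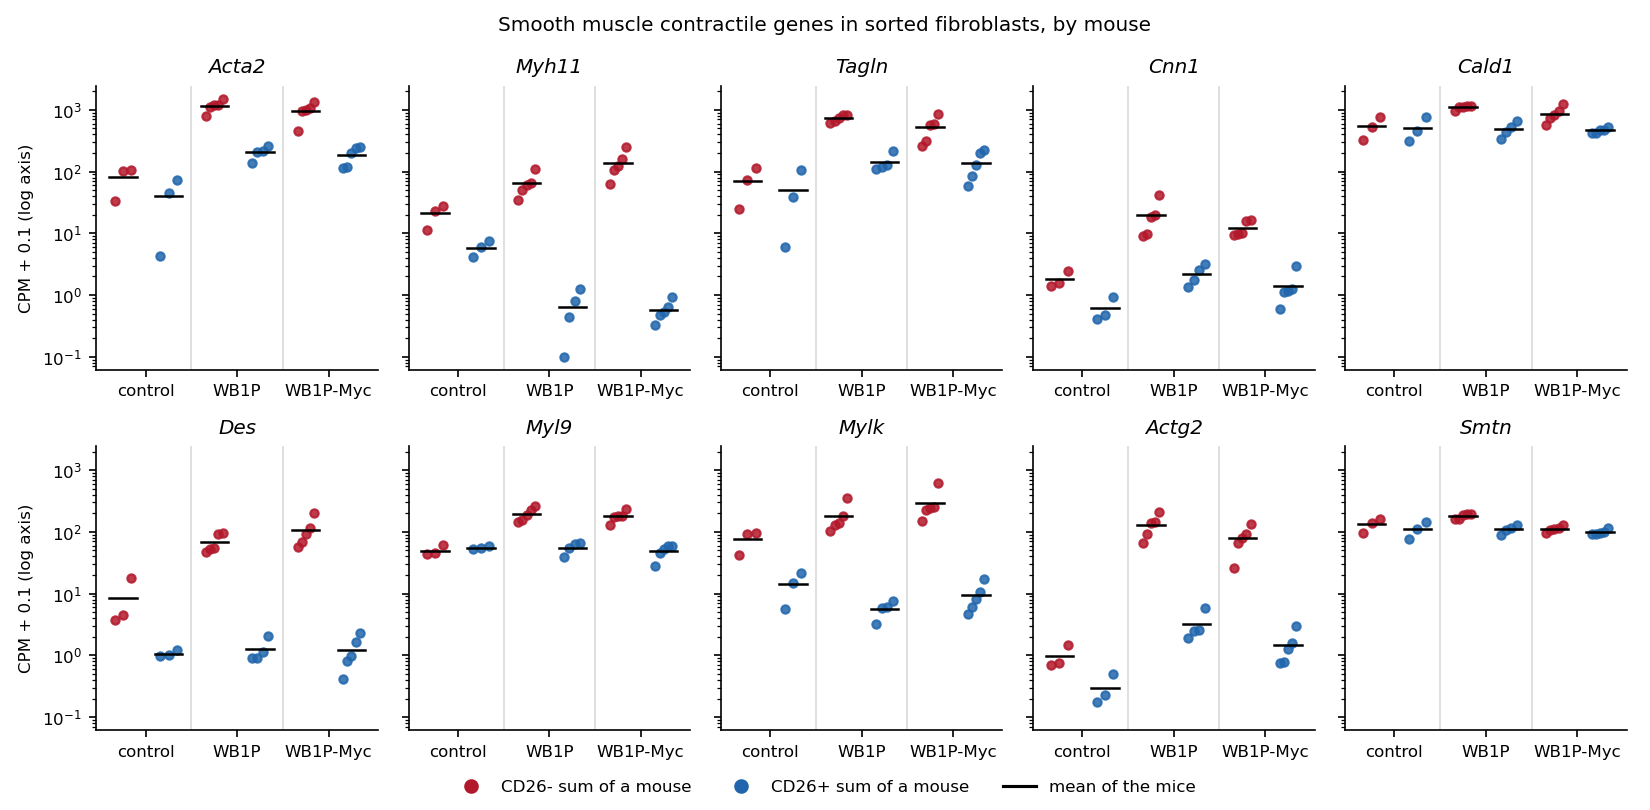
Level of each of the 10 members in every mouse, as CPM plus 0.1 on a log axis, by CD26 class and by control, WB1P and WB1P-Myc. Points are mice, and CD26- CAFs sit above CD26+ CAFs without overlap for Acta2, Actg2, Myh11, Mylk, Des, Myl9, Cnn1 and Tagln. Cald1 does not overlap within either model, while the points of Smtn lie close together.

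The first question was how the members differed between CD26- and CD26+ fibroblasts of the same glands and tumors. In WB1P tumors all 10 members were lower in CD26+ than in CD26- CAFs, by 1.63-fold for Smtn up to 95.7-fold for Myh11. This comparison called 26.0% of the 16601 genes tested, 13.0% as lower. An absolute log2 difference over 2 was reached by 7 of the 10 members and by 7.62% of genes. In WB1P-Myc tumors 9 members were lower, where 20.0% of genes were called, 10.7% as lower and 9.29% as higher, with folds from 1.86 for Cald1 to 277.0 for Myh11. The log2 limit of 2 was passed by 6 members and by 6.56% of genes. The median log2 difference over the 10 members was -2.89 in WB1P and -2.81 in WB1P-Myc tumors, against 0.01 and -0.01 over all genes tested. These are bulk samples, in which fewer cells of a type and less RNA per cell cannot be told apart.

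Of the 2 actins, Acta2 was detected in every sample. In CD26- CAFs of WB1P tumors its level was 1182, 1111, 1212, 1504 and 808 CPM in mice 10, 12, 14, 35 and 93. In CD26+ CAFs it was 255, 218, 211 and 136 CPM in mice 12, 14, 35 and 93. The lowest CD26- value was well above the highest CD26+ value, and the difference was -2.50 ± 0.52 (log2, SE; edgeR's quasi-likelihood test, adjusted p = 0.00111). In WB1P-Myc tumors the CD26- levels were 1065, 1353, 967, 451 and 980.5 CPM in mice 21, 23, 67, 69 and 95, and the CD26+ levels 113, 199, 250.0, 118 and 243 CPM. Mouse 69, one of the 8x8 mice, had the lowest CD26- level, and yet the classes were apart, with a difference of -2.38 ± 0.48 (adjusted p = 0.000875, edgeR).

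Actg2 differed more. It stood at 137, 66.2, 145, 212 and 92.3 CPM in CD26- CAFs of WB1P tumors and at 2.35, 2.44, 5.75 and 1.84 CPM in CD26+ CAFs. In WB1P-Myc tumors it stood at 66.3, 136, 80.1, 26.0 and 91.4 CPM in CD26- CAFs, against 0.655, 1.15, 2.90, 0.682 and 1.51 CPM in CD26+ CAFs. The classes did not overlap in either model. The log2 differences were -5.35 ± 0.55 in WB1P and -5.91 ± 0.52 in WB1P-Myc tumors (edgeR, adjusted p = 5.83e-07 and 7.3e-08).

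The motor and its switch comprise Myh11, the smooth muscle myosin heavy chain, Myl9, a regulatory light chain, and Mylk, the kinase that phosphorylates that light chain. Myh11 in CD26- CAFs of WB1P tumors was at 61.0, 34.3, 66.4, 111 and 50.5 CPM. In CD26+ CAFs it was at 0, 0.693, 1.17 and 0.349 CPM, from 0 to 30 counts per sample. In WB1P-Myc tumors the CD26- values were 249, 61.8, 123, 104 and 161 CPM, and the CD26+ values 0.374, 0.829, 0.424, 0.545 and 0.227 CPM from 3 to 18 counts. CD26+ CAFs thus held traces of Myh11 or none, and the log2 differences of -6.58 ± 0.55 and -8.11 ± 0.52 were the largest among the members (edgeR, adjusted p = 6.3e-08 and 3.19e-09).

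Mylk was high in 1 mouse of each model. Its CD26- values were 349, 129, 141, 183 and 103 CPM in WB1P and 609, 252, 228, 151 and 246 CPM in WB1P-Myc tumors, with mice 10 and 21 at the top. The CD26- sample of mouse 10 held the En1+ library only, and that of mouse 21 the double- library only. The CD26+ values were 3.08, 6.02, 7.42 and 5.83 CPM in WB1P and 8.14, 5.98, 4.60, 17.2 and 10.6 CPM in WB1P-Myc tumors. The classes were far apart in both models, with log2 differences of -4.97 ± 0.55 and -4.99 ± 0.50 (edgeR, adjusted p = 1.39e-06 and 2.95e-07).

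Myl9 is more widely expressed, and CD26+ CAFs kept a substantial level of it. It was at 191, 157, 222, 262 and 147 CPM in CD26- and 65.0, 54.4, 63.4 and 38.9 CPM in CD26+ CAFs of WB1P tumors. In WB1P-Myc tumors it was at 231, 178, 176, 130 and 179.6 CPM in CD26- and 28.2, 58.0, 45.0, 53.5 and 58.4 CPM in CD26+ CAFs. The classes did not overlap, and the log2 differences were -1.82 ± 0.22 and -1.88 ± 0.20 (edgeR, adjusted p = 3.93e-06 and 8.44e-07).

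Desmin forms the muscle intermediate filament and is also a marker of pericytes. Des was at 92.3, 46.4, 51.9, 95.3 and 54.3 CPM in CD26- and 1.99, 0.803, 0.816 and 1.05 CPM in CD26+ CAFs of WB1P tumors. In WB1P-Myc tumors it was at 205, 69.3, 92.7, 56.0 and 116 CPM in CD26- and 0.702, 0.874, 1.56, 0.318 and 2.19 CPM in CD26+ CAFs. No CD26+ value came near a CD26- value, and the log2 differences were -6.05 ± 0.60 and -6.66 ± 0.55 (edgeR, adjusted p = 4.4e-07 and 3.73e-08).

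The 4 remaining members bind actin filaments. Cnn1, which encodes calponin, was at 9.02 to 41.3 CPM in CD26- and 1.24 to 3.08 CPM in CD26+ CAFs of WB1P tumors, a log2 difference of -3.28 ± 0.49, and differed by -3.23 ± 0.45 in WB1P-Myc tumors (edgeR, adjusted p = 4.22e-05 and 1.96e-05). Tagln, which encodes the actin-bundling transgelin, spanned 621 to 836 CPM in CD26- and 109.6 to 212 CPM in CD26+ CAFs of WB1P tumors. Its log2 difference was -2.37 ± 0.58 in WB1P and -1.90 ± 0.52 in WB1P-Myc tumors (edgeR, adjusted p = 0.00419 and 0.0116). Cald1, which encodes caldesmon in a smooth muscle and a widespread form that gene counts do not separate, differed by -1.15 ± 0.26 and -0.90 ± 0.24 (edgeR, adjusted p = 0.00235 and 0.0101).

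Smoothelin, encoded by Smtn, is used as a marker of fully contractile smooth muscle, and it behaved differently. Smtn was at 159.6, 189, 161, 193 and 196 CPM in CD26- and 88.7, 117, 108 and 128 CPM in CD26+ CAFs of WB1P tumors, without overlap. In WB1P-Myc tumors it was at 107, 129, 111, 94.8 and 117 CPM in CD26- and 91.5, 116, 92.3, 96.8 and 100.3 CPM in CD26+ CAFs, with overlap. It was lower in CD26+ CAFs by -0.70 ± 0.16 in WB1P tumors (edgeR, adjusted p = 0.00284), whereas the difference of -0.17 ± 0.15 in WB1P-Myc tumors did not pass the test (95% interval -0.47 to 0.13, adjusted p = 0.487). The change of this difference between the models, 0.53 ± 0.22, did not pass either (edgeR, adjusted p = 1.0).

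Within mice the direction was nearly uniform. In the 4 WB1P mice with both classes every member was lower in CD26+ CAFs, and in the 5 WB1P-Myc mice the single exception was Smtn, lower in 4 of 5. Without the 2 mice marked 8x8, 7 members remained called in WB1P-Myc tumors, Tagln and Cald1 having passed with them (adjusted p without them 0.144 and 0.0513). Leaving out mouse 23 alone ended the call of Tagln, with an adjusted p of 0.0705.

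**Figure D2:**
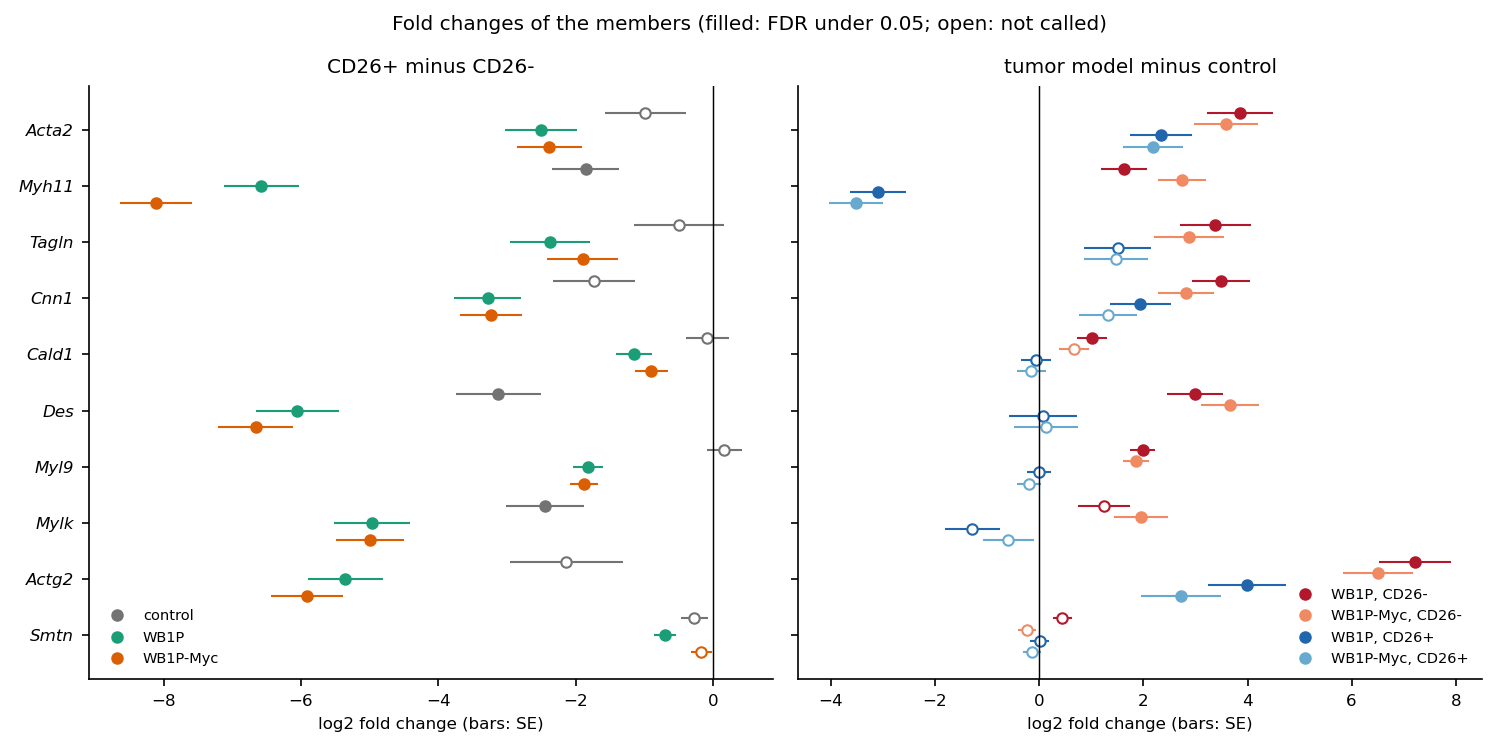
Log2 difference with its standard error for each of the 10 members, in CD26+ against CD26- fibroblasts of control, WB1P and WB1P-Myc and in tumor against control for each CD26 class. Filled points passed the test and open points did not, and the CAF differences of Myh11, Des, Mylk and Actg2 lie farthest below 0.

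Control glands were compared in the same way, with 3 mice. There 3 members were lower in CD26+ than in CD26- NFs, and 7 did not pass, in a comparison that called 4.17% of genes, 1.49% as lower and 2.67% as higher. Of the members 2 passed the log2 limit of 2, as did 2.18% of genes. Des stood at 4.34, 17.6 and 3.66 CPM in CD26- NFs of mice 44/46, 49/52 and 82/83 and at 0.869, 1.13 and 0.911 CPM in CD26+ NFs, a log2 difference of -3.13 ± 0.62 (edgeR, adjusted p = 0.00373). The highest Des value came from mouse 49/52, whose skeletal muscle list was the highest as well. Without its double- library, an alternative chosen after seeing the data, the same 3 members were called, with Des at -2.16 and an adjusted p of 0.0142.

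Mylk stood at 91.6, 41.6 and 96.5 CPM in CD26- and at 14.8, 5.63 and 21.6 CPM in CD26+ NFs. Myh11 stood at 23.2, 28.1 and 11.3 CPM in CD26- and at 7.37, 4.08 and 5.86 CPM in CD26+ NFs. Neither gene overlapped between the classes, and the log2 differences were -2.45 ± 0.57 and -1.85 ± 0.49 (edgeR, adjusted p = 0.0138 and 0.0295). Acta2 at 104.5, 33.7 and 102 CPM against 44.2, 4.19 and 73.6 CPM did overlap, with mouse 49/52 lowest in both classes, and its difference of -0.98 ± 0.59 did not pass (95% interval -2.14 to 0.18).

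The control result depended on the model. With the mouse as a block 6 members were lower in CD26+ NFs, in a fit that called 1916 genes in place of 692, Acta2, Cnn1 and Actg2 being added with adjusted p of 0.0222, 0.0235 and 0.0437, and all of these were lower in 3 of 3 mice. Without mouse 49/52 no member was called, without mouse 44/46 only Des was, and without mouse 82/83 Myh11 was lost with an adjusted p of 0.0512. In a fit of the control samples alone no member passed, with adjusted p between 0.085 and 0.0944 for Myh11, Mylk and Des. Cald1 and Myl9 differed by -0.08 ± 0.31 and 0.16 ± 0.26 in NFs, with 95% intervals of -0.69 to 0.53 and -0.34 to 0.66.

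Whether the class difference was larger in tumors than in control glands was tested directly. Against control glands, WB1P tumors had a larger difference for 2 members, with 1.86% of genes called and 1.07% with a lower value in tumors. The log2 limit of 2 was passed by 1 member and by 1.1% of genes. These were Myh11, by -4.73 ± 0.70 on the log2 scale, and Myl9, by -1.99 ± 0.34 (edgeR, adjusted p = 0.000964 and 0.00273). With the mouse as a block, which called 851 genes in place of 309, there were 5 members, with Cald1, Des and Actg2 added at adjusted p of 0.0475, 0.0177 and 0.0424. Without the double- library of mouse 49/52 Des was called in addition to the first 2, at -3.90 and an adjusted p of 0.00314.

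In WB1P-Myc tumors 3 members had a larger class difference than in control glands, among 1.16% of genes called, and all 3 passed the log2 limit of 2, as did 0.885% of genes. Myh11 differed by -6.26 ± 0.70, Des by -3.53 ± 0.79 and Myl9 by -2.04 ± 0.33 (edgeR, adjusted p = 0.00013, 0.0273 and 0.00168). The call of Des was lost without mouse 21, 23, 44/46 or 82/83, with adjusted p of 0.0896, 0.0553, 0.187 and 0.144. The block, with 523 genes called in place of 193, added Mylk and Actg2 at adjusted p of 0.0269 and 0.0361. These comparisons share the control samples. Between WB1P-Myc and WB1P tumors the class difference was called for no member and for 0.0% of genes by edgeR, and DESeq2 called 2 genes. An unadjusted p under 0.05 was reached by 549 genes, fewer than the 1 in 20 that chance gives.

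Next, tumors were compared with control glands within CD26- fibroblasts. In WB1P tumors 8 members were higher in CAFs, where 35.4% of genes were called and 17.6% were higher. The median log2 difference over the members was 2.49, against 0.00 over all genes tested. In WB1P-Myc tumors 8 members were higher, where 36.6% of genes were called and 19.1% were higher, with a median of 2.78 against 0.02. The 3 control mice were common to both comparisons.

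Actg2 had the largest rise. From 0.596, 1.39 and 0.652 CPM in CD26- NFs, which came from 18 to 38 counts, it reached 66.2 to 212 CPM in WB1P and 26.0 to 136 CPM in WB1P-Myc CAFs. The log2 differences were 7.21 ± 0.69 and 6.50 ± 0.67, or 148-fold and 90.8-fold (edgeR, adjusted p = 1.32e-07 and 4.89e-07). Acta2 was 14.5-fold and 12.0-fold higher, by 3.86 ± 0.63 and 3.59 ± 0.62 on the log2 scale (edgeR, adjusted p = 7.25e-05 and 0.000161). For both actins every CAF value was above every NF value.

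Among the actin-binding members Cnn1 and Tagln rose, by 3.49 ± 0.55 and 3.38 ± 0.69 in WB1P and by 2.82 ± 0.53 and 2.88 ± 0.67 in WB1P-Myc CAFs (edgeR, adjusted p from 4.82e-05 to 0.00217). Cald1 rose by 1.01 ± 0.29 in WB1P CAFs (edgeR, adjusted p = 0.00927), and its 0.67 ± 0.28 in WB1P-Myc CAFs did not pass (adjusted p = 0.0682). Smtn did not pass in either model, at 0.45 ± 0.18 (adjusted p = 0.0537) and -0.24 ± 0.17 (adjusted p = 0.296). Smtn was thus the member whose level was closest between NFs and CAFs.

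Of the motor genes Myl9 rose by 1.98 ± 0.25 in WB1P and 1.85 ± 0.25 in WB1P-Myc CAFs, and Myh11 by 1.63 ± 0.44 and 2.74 ± 0.47 (edgeR, adjusted p from 3.35e-06 to 0.00662). Mylk rose by 1.96 ± 0.52 in WB1P-Myc CAFs (edgeR, adjusted p = 0.00591), whereas 1.24 ± 0.50 in WB1P CAFs did not pass (adjusted p = 0.0589). Des rose by 3.00 ± 0.54 and 3.66 ± 0.56 (edgeR, adjusted p = 0.000203 and 4.63e-05). Without the double- library of control mouse 49/52 the rise of Des was 3.96 and 4.62. The pericyte list was higher in CD26- CAFs as well, and its values are given further on.

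In CD26+ fibroblasts the members moved in different directions. In WB1P tumors 3 were higher and 1 lower than in CD26+ NFs, where 33.5% of genes were called, 17.4% as higher and 16.1% as lower. In WB1P-Myc tumors 2 were higher and 1 lower, where 34.7% were called, 17.4% as higher and 17.3% as lower. The log2 limit of 2 was passed by 3 members in each model, and by 7.85% and 7.42% of genes. The median log2 difference over the members was 0.04 and 0.00. Actg2 rose from 0.129, 0.0755 and 0.396 CPM in CD26+ NFs by 4.00 ± 0.75 in WB1P and 2.72 ± 0.77 in WB1P-Myc CAFs, although the NF values came from 2 to 10 counts (edgeR, adjusted p = 0.000491 and 0.00943). Acta2 rose by 2.34 ± 0.59 and 2.18 ± 0.58 (edgeR, adjusted p = 0.00511 and 0.00623), and all its CD26+ CAF values were above those of CD26+ NFs. In a fit of the compared groups alone the WB1P value of Acta2 did not pass (adjusted p = 0.0549, edgeR). Without control mouse 82/83 the differences were 3.07 and 2.93 for Acta2 and 4.86 and 3.60 for Actg2. Tagln was at 1.51 ± 0.64 and 1.48 ± 0.62, which did not pass by edgeR (adjusted p = 0.0722 and 0.0682) and did by DESeq2 (adjusted p = 0.0359 and 0.0339).

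Myh11 went the other way. Its CD26+ NF values of 7.37, 4.08 and 5.86 CPM were all above the CD26+ CAF values of 0 to 1.17 CPM. The log2 differences were -3.10 ± 0.54 in WB1P and -3.52 ± 0.51 in WB1P-Myc CAFs (edgeR, adjusted p = 0.000252 and 4.71e-05). Myh11 was therefore higher in tumors than in control glands among CD26- fibroblasts and lower among CD26+ fibroblasts. Mylk was lower as well at -1.28 ± 0.52 in WB1P CAFs, which did not pass (adjusted p = 0.0616), and Des, Myl9, Cald1 and Smtn had log2 differences between -0.19 and 0.13 in both models with no call. Cnn1 was called in WB1P CAFs only, at 1.94 ± 0.58 against 1.32 ± 0.56 (edgeR, adjusted p = 0.0138 and 0.0707), and the difference between the models of -0.62 ± 0.48 was not called. The call of Cnn1 was lost without control mouse 49/52 or 82/83 (adjusted p = 0.0662 and 0.0612, edgeR), and that of Actg2 in WB1P-Myc CAFs without control mouse 44/46 (adjusted p = 0.0515).

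Between the tumor models the members differed little. In CD26- CAFs Smtn was the 1 member called of 10, in a comparison that called 85 genes or 0.512%. It was lower in WB1P-Myc than in WB1P CAFs by -0.68 ± 0.15 (edgeR, adjusted p = 0.0466), and the 5 values of 94.8 to 129 CPM did not overlap with the 5 of 159.6 to 196 CPM. The call was lost without any of the 5 WB1P mice, without WB1P-Myc mouse 21, 67, 69 or 95 and without control mouse 44/46, with adjusted p from 0.0528 to 0.141. Without both mice marked 8x8 the adjusted p was 0.125, whereas the call was kept without mouse 23 alone at 0.0254. Myh11 at 1.11 ± 0.36 did not pass (adjusted p = 0.156), and its ranges overlapped. Outside the members, the angiotensin receptor gene Agtr1a was the 1 gene of the 6 pathway lists called there, higher in WB1P-Myc CAFs by 1.59 ± 0.16 (edgeR, adjusted p = 2.12e-05).

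In CD26+ CAFs no member was called between the models, and edgeR called 0.0% of genes and DESeq2 9 genes. At an unadjusted p under 0.05 there were 646, again fewer than 1 in 20. The largest member difference there was that of Actg2, -1.27 ± 0.52, whose 95% interval ran from -2.28 to -0.26 before adjustment.

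The sort also separated cells of the En1 lineage, which allowed a comparison within each CD26 class. Over single libraries of CD26- CAFs, En1+ against double-, no member was called and 0.0% of 15584 genes were, by edgeR. At an unadjusted p under 0.05 there were 641 genes, fewer than 1 in 20. DESeq2 called 8, and edgeR with the mouse as a block called 11. Myh11 had the largest member difference, -0.72 ± 0.29, with an adjusted p of 0.992 by edgeR. In the 7 mice with both libraries it was lower in the En1+ library in 7 of 7, with medians of 49.5 and 91.4 CPM and ranges of 32.4 to 106 and 35.9 to 151 CPM. Smtn was higher in the En1+ library in 7 of 7 mice, by 0.10 ± 0.12, and the remaining 8 members split between the directions.

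Acta2 had medians of 1166 and 1065 CPM in the En1+ and double- libraries of those 7 mice, with a log2 difference of -0.03 ± 0.39 and a 95% interval of -0.80 to 0.74. Between double+ and CD26+ libraries of CD26+ CAFs no member was called either, where 0.0193% of genes were called, and the log2 differences ran from -0.65 ± 0.58 for Myh11 to 0.39 ± 0.53 for Des.

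**Figure D3:**
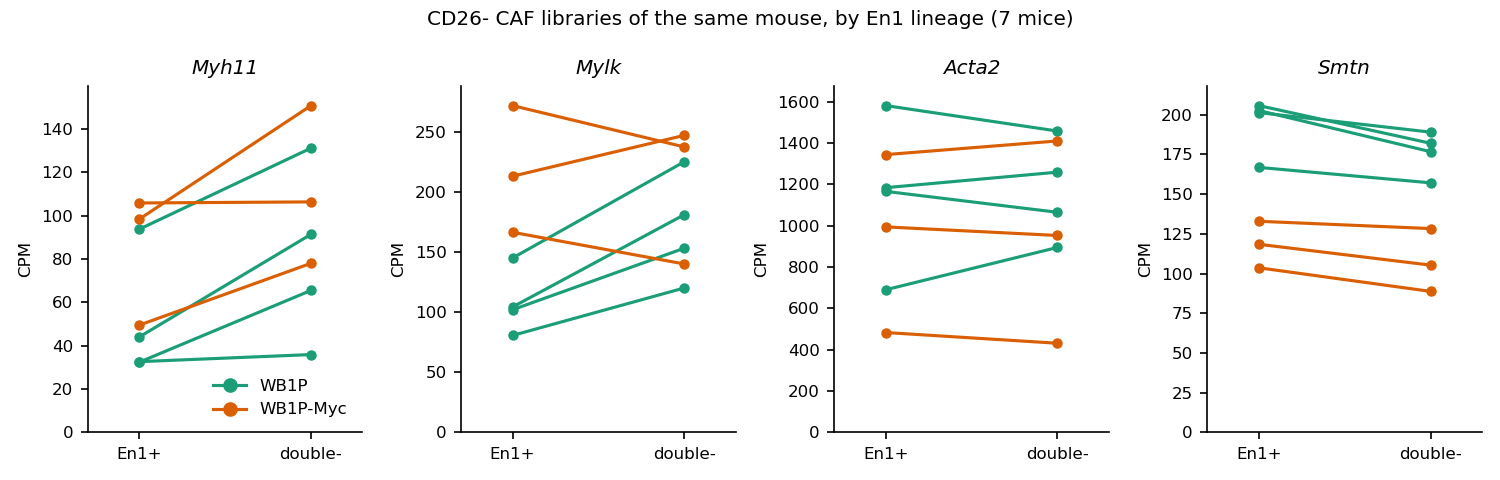
Levels of Myh11, Mylk, Acta2 and Smtn in CPM in the En1+ and double- libraries of 7 mice with CAFs, with a line for each mouse. All 7 lines of Myh11 fall from double- to En1+ and all 7 of Smtn rise slightly, while those of Acta2 and Mylk go both ways.

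The regulators of these genes were measured too, together with 5 further lists of the contractile pathway, none of which was independent of earlier results. The shares of all genes called, against which these counts are read, were 26.0% and 20.0% between the CAF classes of WB1P and WB1P-Myc, 35.4% and 36.6% against control in CD26- fibroblasts, and 33.5% and 34.7% in CD26+ fibroblasts. Of 10 tested transcription factors and coactivators 5 were lower in CD26+ than in CD26- CAFs of WB1P tumors and 6 in WB1P-Myc tumors, and none was higher. Myocd, which encodes the coactivator myocardin, was at 1.79 to 3.48 CPM in WB1P and 1.74 to 5.17 CPM in WB1P-Myc CD26- CAFs, and at means of 0.170 and 0.248 CPM in CD26+ CAFs. Its log2 differences were -3.66 ± 0.71 and -3.76 ± 0.63 (edgeR, adjusted p = 0.000569 and 0.000139). Relative to CD26- NFs at 0.109 to 0.402 CPM it was higher by 3.25 ± 0.74 and 3.71 ± 0.75 (edgeR, adjusted p = 0.0017 and 0.000711), from 3 to 11 counts in the NF samples.

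Srf, serum response factor itself, did not follow. It was lower in CAFs than in NFs of the same class in all 4 comparisons, by -0.76 ± 0.20 and -0.75 ± 0.20 in CD26- and by -0.73 ± 0.22 and -1.02 ± 0.20 in CD26+ fibroblasts of WB1P and WB1P-Myc (edgeR, adjusted p from 0.000934 to 0.014). Mrtfa, a myocardin-related factor, was higher in CD26- CAFs by 0.62 ± 0.14 and 0.48 ± 0.14 (edgeR, adjusted p = 0.00143 and 0.0096), while Mrtfb was not called there. Foxs1 and Heyl, which are both expressed in mural cells, were lower in CD26+ CAFs by -3.91 ± 0.66 and -3.44 ± 0.72 in WB1P and by -3.42 ± 0.58 and -2.84 ± 0.64 in WB1P-Myc tumors (edgeR, adjusted p from 0.000154 to 0.00239). Mef2c was higher in CD26- CAFs than NFs by 1.16 ± 0.40 and 1.53 ± 0.41, and Gata6 lower by -1.35 ± 0.35 and -0.91 ± 0.35 (edgeR, adjusted p from 0.00442 to 0.0424).

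Of 10 further thin filament genes 5 were lower and 1 higher in CD26+ CAFs of WB1P tumors, and 4 were lower in WB1P-Myc tumors. The tropomyosins Tpm1 and Tpm2 were lower by -1.88 ± 0.25 and -2.19 ± 0.45 in WB1P and by -1.55 ± 0.23 and -2.06 ± 0.41 in WB1P-Myc tumors (edgeR, adjusted p from 9.29e-06 to 0.000946). Relative to CD26- NFs 5 of the 10 were higher in WB1P and 4 in WB1P-Myc CD26- CAFs, and none was lower. Tpm1 and Tpm2 were among them, at 1.84 ± 0.28 and 2.08 ± 0.49 in WB1P CAFs (edgeR, adjusted p = 2.71e-05 and 0.00246). In CD26+ CAFs Cnn2, a calponin of non-muscle cells, was higher than in NFs by 1.05 ± 0.39 and 1.22 ± 0.38 (edgeR, adjusted p = 0.043 and 0.0173).

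Of 6 non-muscle motor genes Myh9, which encodes a non-muscle heavy chain, was the 1 called between CAF classes in WB1P tumors at -0.95 ± 0.31 (edgeR, adjusted p = 0.0267), and none was called in WB1P-Myc tumors. Myh9 was higher in CD26- CAFs than NFs by 1.51 ± 0.35 and 1.09 ± 0.34 (edgeR, adjusted p = 0.00199 and 0.0167). Myh10, another non-muscle heavy chain, was lower in CD26+ CAFs than NFs by -0.73 ± 0.28 and -0.90 ± 0.26 (edgeR, adjusted p = 0.0439 and 0.0112).

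Of 10 genes that control light chain phosphorylation 2 were lower and 1 higher in CD26+ CAFs of WB1P tumors, and 3 lower and 1 higher in WB1P-Myc tumors, beside 26.0% and 20.0% of all genes called. Prkg1, the cyclic GMP-dependent kinase that relaxes smooth muscle, was lower by -1.82 ± 0.32 and -1.46 ± 0.29, and Rhoa, the small GTPase that promotes contraction, was higher by 0.41 ± 0.10 and 0.41 ± 0.09 (edgeR, adjusted p from 0.000238 to 0.00379). Relative to NFs Prkg1 was higher in CD26- CAFs by 2.87 ± 0.38 and 2.59 ± 0.37 (edgeR, adjusted p = 6.53e-06 and 2.44e-05).

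Among 23 genes that link filaments to adhesions and to each other, 14 were lower and 1 higher in CD26+ CAFs of WB1P tumors, and 12 lower and 3 higher in WB1P-Myc tumors. Synpo2, an actin-binding protein of the Z-disc, was lower by -3.17 ± 0.43 and -3.24 ± 0.39 (edgeR, adjusted p = 1.25e-05 and 2.95e-06). Relative to CD26- NFs 10 were higher in WB1P and 6 in WB1P-Myc CD26- CAFs and none was lower, beside 35.4% and 36.6% of all genes called, led by Nexn at 2.98 ± 0.40 and 3.11 ± 0.40 and by the alpha-actinin gene Actn1 at 2.82 ± 0.40 and 2.55 ± 0.39 (edgeR, adjusted p from 7.39e-06 to 4.78e-05). Actn1 was higher in CD26+ CAFs than NFs as well, by 2.15 ± 0.39 and 2.12 ± 0.38 (edgeR, adjusted p = 0.000409 and 0.000381).

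The list of receptors, channels and cyclic GMP enzymes had 19 genes tested. In CD26+ against CD26- CAFs 9 were lower and 3 higher in each model. Kcnmb1, the smooth muscle subunit of the large-conductance potassium channel, was at means of 21.0 and 21.3 CPM in CD26- and 0.186 and 0.262 CPM in CD26+ CAFs, and Ednrb, an endothelin receptor, at 25.2 and 40.6 against 0.279 and 0.312 CPM. Their log2 differences ran from -6.45 ± 0.66 to -6.99 ± 0.76 (edgeR, adjusted p from 4.35e-07 to 8.76e-06). Kcnma1, the pore of the same channel, was higher in CAFs than NFs of both classes, by 6.38 ± 0.81 and 4.79 ± 0.76 in CD26- and by 6.15 ± 0.83 and 5.70 ± 0.81 in CD26+ fibroblasts (edgeR, adjusted p from 3.89e-06 to 6.46e-05). Gucy1b1 and Gucy1a1, the subunits of soluble guanylate cyclase, were lower in CD26+ CAFs than NFs by -3.10 ± 0.49 and -2.88 ± 0.63 in WB1P tumors and by -2.66 ± 0.44 and -2.69 ± 0.58 in WB1P-Myc tumors (edgeR, adjusted p from 9.42e-05 to 0.0018).

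In control glands 3 genes of these 6 lists were called between CD26+ and CD26- NFs, all of them receptors. The share of all genes called in that comparison was 4.17%. Agtr1a, an angiotensin receptor, was higher in CD26+ NFs by 1.26 ± 0.20 (edgeR, adjusted p = 0.000516), as was Oxtr by 3.31 ± 0.71, while Adra1a was lower by -2.64 ± 0.74, these 2 being named after their values were seen.

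Pericyte markers moved with the members and are given as a whole list. Of 12 pericyte genes 8 were lower in CD26+ than in CD26- CAFs of WB1P tumors and 11 in WB1P-Myc tumors, where 26.0% and 20.0% of all genes were called, and 1 of 12 was lower between the classes of control glands. In CD26- fibroblasts 11 of 12 were higher in CAFs than NFs in each model, where 35.4% and 36.6% of all genes were called and Vtn was the exception. The summed level was 2082 to 6062 CPM in CD26- and 339 to 540.4 CPM in CD26+ CAFs of WB1P tumors, and 2653 to 10010 CPM against 279 to 450.3 CPM in WB1P-Myc tumors. In NFs it was 261 to 519 CPM in CD26- and 196 to 217 CPM in CD26+ samples. Rgs5, a defining pericyte gene, averaged 1031 and 2069 CPM in the CD26- class of the tumors, 2.72 and 5.93 CPM in their CD26+ class and 27.9 CPM in CD26- NFs. None of the 12 genes was at 0 throughout a group. The part of the pericyte transcripts in the member differences was not tested.

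Myoepithelial markers were followed in the same way. Of 8 such genes 1 was lower and 1 higher in CD26+ than in CD26- CAFs of WB1P tumors, and 2 were lower and 1 higher in WB1P-Myc tumors. The shares of all genes called there were 26.0% and 20.0%. Relative to CD26- NFs 1 was higher and 1 lower in WB1P and 2 were higher in WB1P-Myc CD26- CAFs. Beside these counts 35.4% and 36.6% of all genes were called. On average most of the summed level in CD26- CAFs was Cdh3, which encodes P-cadherin, at means of 56.9 and 43.1 CPM in CD26- CAFs against 0.740 CPM in CD26- NFs. The keratin gene Krt5, a defining marker of the basal layer, averaged 1.74 and 2.57 CPM in CD26- CAFs against 2.63 CPM in CD26- NFs, and none of the 8 genes was at 0 throughout a group. The list was highest in mouse 23 at 190 CPM and in mouse 35 at 129 CPM, and lowest in mouse 21 at 12.4 CPM and mouse 69 at 21.4 CPM. Mice 23 and 35 had the highest Tagln and Acta2, and mice 21 and 69 the lowest Tagln. Acta2 was lowest in mouse 69 at 451 CPM, but mouse 21 had 1065 CPM, above mice 67, 93 and 95. No correlation of the members with this list was calculated. The part of the myoepithelial transcripts in the member differences was not tested.

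The members were not equally tied to the pericyte list from mouse to mouse. Over the 10 mice with CD26- CAFs, log2 levels of each member were correlated with the log2 summed pericyte list, in 10 relations with permutation tests of 100000 resamples. Mylk followed it closely, with Pearson's r of 0.967 (permutation p = 1e-05, the smallest possible, adjusted p = 0.0001) and Spearman's rho of 0.927 (adjusted permutation p = 0.0038). Without the 2 mice farthest from the median r was 0.893, and after centring each model on its own mean it was 0.958. Des followed with r of 0.861 (adjusted permutation p = 0.0103) and rho of 0.782 (adjusted p = 0.0538), with r of 0.708 without the 2 farthest mice and 0.823 after centring.

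No other member passed. Myh11 had r of 0.58 (adjusted permutation p = 0.268), Acta2 0.234, Actg2 0.02, Tagln -0.349 and Smtn -0.439. After centring each model on its own mean, r was 0.411 for Myh11, 0.484 for Acta2, 0.322 for Actg2, -0.121 for Tagln and -0.024 for Smtn. Mouse 21, with the highest list level of 10010 CPM, had the highest Mylk, Des and Myh11, while its Tagln of 317 CPM was the second lowest of the 10. Mice 10 and 95 came next on the list, at 6062 and 4812 CPM. The CD26- sample of mouse 10 held the En1+ library only, and those of mice 21 and 95 the double- library only. Mouse 35 had the highest Acta2, Actg2 and Cnn1 with a list level of 2963 CPM. With 5 mice a model, no correlation was calculated for either model on its own.

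**Figure D4:**
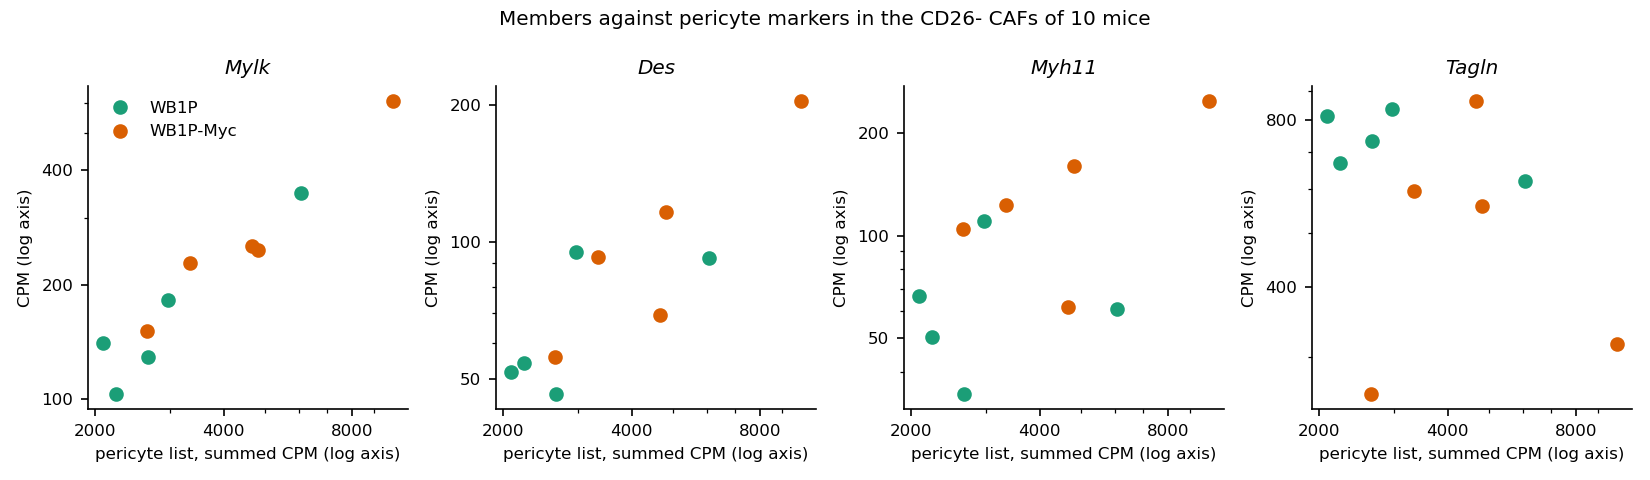
Levels of Mylk, Des, Myh11 and Tagln against the summed level of 12 pericyte markers, both in CPM on log axes, in the CD26- CAFs of 10 mice coloured by model. Mylk and Des rise along with the list (r of 0.967 and 0.861), Myh11 does so loosely and Tagln does not.

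The members were also correlated with each other. Of 45 pairs over the same 10 mice, 9 passed by Pearson's r with adjusted permutation p from 0.0173 to 0.0429, and none passed by Spearman's rho after adjustment. Des was correlated with Mylk and with Myh11, at r of 0.891 and 0.853 and rho of 0.77 and 0.842. The other 7 pairs were all among Acta2, Actg2, Tagln, Cald1, Myl9 and Smtn, led by Acta2 with Actg2 at 0.89 and Tagln with Cald1 at 0.882, where rho was 0.733 and 0.855. Without the 2 mice farthest from the median these 4 coefficients were 0.734, 0.644, 0.525 and 0.794, and the largest drop of the 4 was that of the 2 actins. The lowest coefficient was that of Myh11 with Smtn, -0.677, which was -0.235 after centring each model and did not pass.

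**Figure D5:**
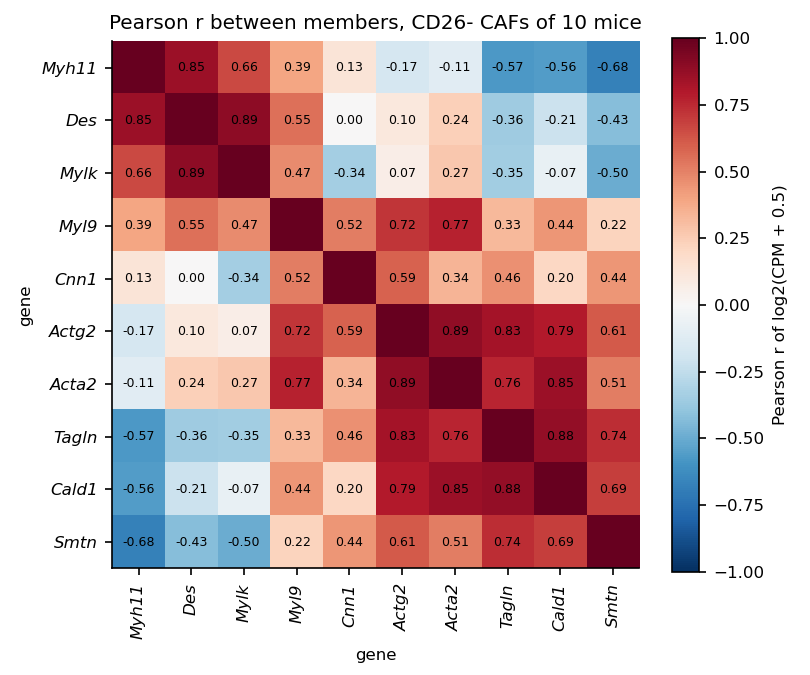
Pearson's r between the log2 levels of all pairs of the 10 members over the CD26- CAFs of 10 mice, as a colour scale from -1 to 1. The block of Acta2, Actg2, Tagln and Cald1 and the block of Myh11, Des and Mylk are seen as areas of high r, although Myh11 with Mylk at 0.662 and Acta2 with Tagln at 0.764 did not pass.

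The mice were also ordered by the mean z-score of the 10 members in CD26- CAFs. Mouse 35 of WB1P was highest at 0.967 and mouse 69 of WB1P-Myc lowest at -1.37, with the other 8 mice between -0.32 and 0.28. Among 8854 genes outside the members with a mean of at least 10 CPM, those most like this score over the 10 mice were Epm2aip1, Dysf, Rp2, Tpm2 and Ccdc6, with Pearson's r of 0.902, 0.899, 0.881, 0.873 and 0.872. Without the 2 farthest mice r was 0.757, 0.468, 0.611, 0.511 and 0.411. These genes were picked for their r, which is a description.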

How the data were processed

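RNA was sequenced from sorted mammary fibroblasts of 13 mice (44 libraries, TruSeq stranded mRNA). The authors deposited raw read counts per gene, and the submitters' processing notes name HISAT2 2.2.1 and GRCm38, while the counter and annotation are not given in the sources used here. GENCODE coordinates of that build equalled those of the table for 54906 of 55226 shared identifiers. One line of the table named no gene and held 0 counts.

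Counts were summed per mouse and CD26 class, so that libraries of 1 mouse were not treated as replicates. The 25 sums entered 1 fit of 6 groups with the quasi-likelihood test of edgeR 4.0.16 (R 4.3.3, filterByExpr, TMM), tested on simulated data, and Benjamini-Hochberg adjustment ran over all 16601 genes, with a call at an adjusted p under 0.05. En1 comparisons used the single libraries. SEs were derived from the F statistic, and correlations used log2(CPM + 0.5). Alternatives were DESeq2 1.42.0, its size factors, no filter, the compared groups alone, single libraries, a log2 limit of 2, the mouse as a block and each mouse left out. The labels tie both classes to a mouse, and in 12 mice the deviations of the classes correlated with r from 0.26 to 0.738.

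All members were named, with the 2 most changed called genes of each pathway list at 10 CPM or more, Srf, Myocd and the myocardin-related factors, and the 5 genes most like the members. Some genes that this rule names are not reported here. Members and lists were chosen with earlier results of these data known. No library pair of 63 differed by as little as sampling noise. Labels do not say whether pairs of numbers are pooled mice, and p-values measure the spread between these samples.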

Additional observations from a re-analysis of the deposited data

Results flagged for a closer look

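In 40 groups of 4 or 5 mice, 1 for each member, model and CD26 class of tumors, 4 held a mouse far from the others, where chance gives about 1 in 20. Mylk in CD26- CAFs of WB1P-Myc tumors was highest in mouse 21 at 609 CPM, with the nearest mouse at 252 CPM. Mouse 21 had the highest pericyte list as well, and its CD26- sample held the double- library only. Cald1 in CD26- CAFs of WB1P tumors was lowest in mouse 93 at 956 CPM, with the nearest at 1107 CPM. Actg2 in CD26+ CAFs of WB1P tumors was highest in mouse 35 at 5.75 CPM, with the nearest at 2.44 CPM. Cnn1 in CD26+ CAFs of WB1P-Myc tumors was highest in mouse 67 at 2.90 CPM, with the nearest at 1.15 CPM.

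The CD26 difference was tested directly between tumors and control glands by edgeR. It was larger in WB1P tumors for Myh11, by -4.73 on the log2 scale, and for Myl9, by -1.99. In WB1P-Myc tumors it was larger for Myh11 by -6.26, for Des by -3.53 and for Myl9 by -2.04. Myl9 had close levels in both classes of NFs, at means of 49.5 and 55.4 CPM.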

How the results depend on the processing

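Of 2839 member values under an alternative, 2749 kept their side of the threshold, 34 lost a call and 56 gained one. The direction changed for 0 called values, and for 72 uncalled values that are among the 2749. The 10 calls between CAF classes in WB1P tumors held without any 1 mouse. With DESeq2 the members called were 5 between NF classes, 10 for WB1P against control in CD26- and 6 in CD26+ fibroblasts, 5 for WB1P-Myc against control in CD26+ fibroblasts, and 5 in each comparison of a CD26 difference with that of control. DESeq2 also called more of all genes in these comparisons. In the order given, it called 996, 6490, 6150 and 6373 genes in place of 692, 5869, 5566 and 5753. For the CD26 differences in WB1P and WB1P-Myc it called 646 and 414 genes in place of 309 and 193. Single libraries as replicates gave 5 and 5 members for the CD26 differences, as did the mouse as a block, which gave 6 between NF classes. How many of all genes the single libraries called was not counted. The block changed no other call of a member. With only the groups compared, 0 were called between NF classes. A log2 limit of 2 left 5 for WB1P against control in CD26- fibroblasts and 1 for the WB1P CD26 difference. The 1 call between models in CD26- CAFs became 0 with no filter, with only the groups compared, without the 8x8 mice and with the log2 limit. Leaving out 1 mouse gave 0 to 3 calls between NF classes, 0 to 1 between models in CD26- CAFs, 2 to 3 for the WB1P CD26 difference and 2 to 4 for that of WB1P-Myc. The cause of these changes was not tested. The 3 control mice limit each comparison with NFs, and Myh11 and Actg2 in CD26+ fibroblasts rested on 0 to 229 and 2 to 148 counts.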
